A study of Mus musculus with 12 samples.

Results

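The transcripts described here encode 9 transcription factors that define hepatocyte identity: Hnf4a, Foxa1, Foxa2, Foxa3, Cebpa, Onecut1, Prox1, Nr1i2 and Nr1i3. They were taken by name from the 21936 genes of the deposited table, by a rule that uses no measured value, although earlier results of these data were known when the list was made. All 9 were found there. Liver RNA was sequenced from male C57BL/6 mice (C57BL/6J in the study's methods) with hepatic fibrosis induced by carbon tetrachloride (CCl4), a toxin that injures hepatocytes and leads to scarring. Every mouse, aged 6 weeks when purchased, had received CCl4 at 1 mL/kg intraperitoneally on 2 days of each week for 8 weeks. Mice of the liver fibrosis group (LFG) were killed after that period. In the regression group (REG) it was followed by 4 weeks of tail vein injections of 200 µL of phosphate-buffered saline, 2 in each week. The hADMSCs-Exo group was given 250 µg of exosomes from human adipose mesenchymal stem cells in 200 µL on the same schedule. Each group had 3 libraries, and no uninjured liver was analysed here. REG and hADMSCs-Exo therefore differed from LFG in time since the last CCl4 as well as in what was injected, and these cannot be told apart in a comparison with LFG. The sources used here do not say whether each library came from 1 mouse, so p-values measure the spread between these libraries.

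Hepatocytes keep their identity through a small network of factors that bind each other's genes and the genes of liver function. Hnf4a is the nuclear receptor at its centre, the Foxa proteins open chromatin ahead of other factors, and Cebpa drives metabolic genes in the quiescent cell. Onecut1 (HNF6) and Prox1 act from liver development onwards, and Nr1i2 (PXR) and Nr1i3 (CAR) are receptors that sense drugs and bile acids and switch on detoxification enzymes. Loss of these factors is a known feature of injured, dedifferentiating hepatocytes.

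Total counts per library lay between 13837445 and 19840917, and the 9 factors had from 20 (Onecut1) to 12745 (Hnf4a) counts in a library. The tissue label was borne out by hepatocyte markers such as Alb, whose FPKM summed over 11 genes to between 56133 and 84069 in all libraries. LFG 3 stood apart from the other LFG libraries. Across genes it correlated with them by 0.834 and 0.874, while they correlated with each other by 0.965. Its summed stellate cell and myofibroblast markers were 9.55 FPKM against 160 in LFG 2 and 285 in LFG 1, and its macrophage markers were at 74.5 FPKM where the highest LFG library had 1339. Values of the factors against LFG are therefore given with and without LFG 3. In bulk liver, fewer hepatocytes and less of a transcript per hepatocyte cannot be told apart.

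The promoters of the factors were read from RefSeq (GRCm38.p6), which gave 13 transcription starts for the 9 factors, as 250 bases before each start. They were searched on both strands for motifs of the network itself. FOXA motifs (the letters TGTTTAC, with TGTTTGC counted as well and also TATTTAC) were found in 3 of the 13 windows, of 3 different factors, and in 9.73% of 32851 mouse promoters of the same length. ONECUT motifs (ATCGAT or ATCAAT) were found in 2 of 13, and in 7.40% of all promoters. C/EBP motifs (TTNCNNAA) were found in 3 of 13, and in 36.8% of all. HNF4A motifs (CAAAGTCCA or CAAAGGTCA) were in none of the windows, and in 0.807% of all promoters. CCAAT was found in 6 of 13, of 5 factors, and in 33.8% of all promoters.

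The Nr1i2 promoter is shown because it held 3 FOXA matches, a number that 13 of 32851 promoters (0.0396%) reached. The matches, in capitals, begin 191, 164 and 78 bases before the start, and a CCAAT match on the opposite strand overlaps the first by 1 base. The window is chr16:38294825-38295074 of GRCm38, minus strand, outside any annotated exon.
Nr1i2: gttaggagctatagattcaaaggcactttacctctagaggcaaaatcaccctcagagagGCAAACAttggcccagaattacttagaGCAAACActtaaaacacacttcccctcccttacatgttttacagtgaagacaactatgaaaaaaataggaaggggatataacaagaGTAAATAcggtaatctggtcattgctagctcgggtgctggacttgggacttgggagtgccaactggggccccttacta

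TATAAA occurred in 4 of the 13 windows, of 4 factors, and in 12.4% of all promoters. It is shown for the 3 factors in which it began 20 to 40 bases before the start, a distance found in 2.50% of all promoters. The last 60 bases before the start are given, with the match on either strand in capitals, at chr1:190170828-190170887 (minus) for Prox1, chr7:19023540-19023599 (minus) for Foxa3 and chr7:35119233-35119292 (plus) for Cebpa.
Prox1: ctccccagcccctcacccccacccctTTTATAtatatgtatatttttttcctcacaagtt
Foxa3: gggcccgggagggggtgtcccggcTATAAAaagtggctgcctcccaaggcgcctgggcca
Cebpa: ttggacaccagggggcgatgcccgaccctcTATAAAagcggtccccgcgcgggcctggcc
These matches are letters in a window and were not tested as binding sites.

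Levels of different genes were compared as FPKM, the authors' counts per gene length and library total. Hnf4a was the most abundant factor, with a mean of 132 FPKM over 9 libraries, and Cebpa followed with 90.9 FPKM. Nr1i2 (36.8 FPKM) and Foxa3 (28.7 FPKM) formed the middle of the order. Prox1 (10.9 FPKM) and Foxa2 (10.3 FPKM) were next, then Nr1i3 (5.12 FPKM), Foxa1 (4.13 FPKM) and Onecut1 (1.16 FPKM). Nr1i3 and Onecut1 share 74.9% and 52.8% of their exon bases with other genes, so their FPKM depends on how shared reads were counted. Several neighbours in this order did not differ beyond their spread. Within REG the order turned for 2 neighbours, since Cebpa had a mean of 116 FPKM there against 103 FPKM for Hnf4a, and Foxa2 had 10.8 FPKM against 9.19 FPKM for Prox1. Hnf4a was above Cebpa in 7 of 9 libraries, Prox1 above Foxa2 in 5 of 9 and Nr1i3 above Foxa1 in 5 of 9. Cebpa was above Nr1i2, Foxa3 above Prox1 and Foxa1 above Onecut1 in 9 of 9. Among the Foxa genes, Foxa3 was the most abundant in every library.

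**Figure D1:**
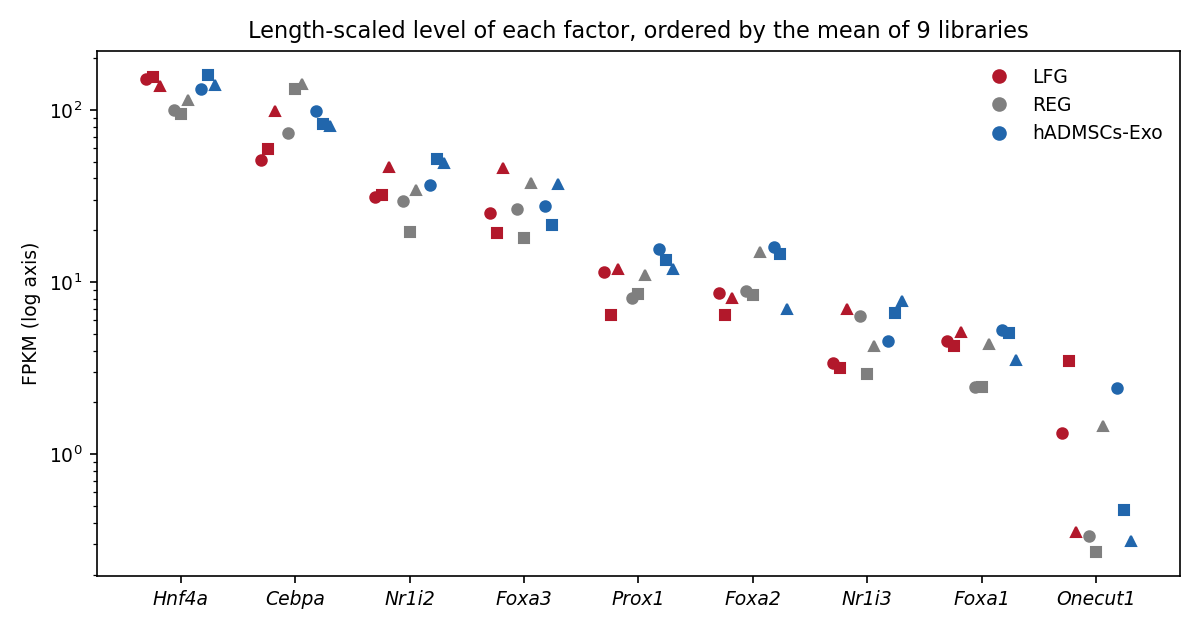
FPKM of each factor (log axis) in the 9 libraries, coloured by group, with circles, squares and triangles for replicates 1, 2 and 3. Hnf4a and Cebpa lie highest, at means of 132 and 90.9 FPKM, and Onecut1 lies lowest and is the most spread, from 0.271 to 3.50 FPKM.

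Between hADMSCs-Exo and REG, the comparison that isolates the exosome injection after the same recovery time, 8 of 9 factors had a positive log2 fold change. Prox1, Nr1i2 and Hnf4a were higher in hADMSCs-Exo by 1.41-, 1.60- and 1.35-fold with an unadjusted p under 0.05, which 10.0% of the 12337 genes tested reached (5.34% in the higher direction). Cebpa alone was lower, by a log2 fold change of -0.47. None of the 9 passed the study's thresholds (adjusted p under 0.05, with a log2 fold change of 1 or more in size) by edgeR's quasi-likelihood test, and 0 passed with DESeq2. The edgeR background is 0.00811% of genes, which is 1 gene. The 9 factors had a median log2 fold change of 0.45, beside 0.0080 for all genes tested. With 1 library left out in turn the median of the factors ran from 0.22, without REG 2, to 0.50. Prox1, Nr1i2 and Hnf4a were also the 3 under that unadjusted p with DESeq2, which 7.74% of its 16063 genes reached. With all 9 libraries in one fit 0 of 9 were, and without REG 2, hADMSCs-Exo 2 or hADMSCs-Exo 3 only Prox1 was.

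Against LFG the number of factors with an unadjusted p under 0.05 depended on the tool. It was 0 with edgeR and with DESeq2, while limma voom with quality weights gave 7 for hADMSCs-Exo and 4 for REG. For hADMSCs-Exo, 0 of 9 passed the thresholds by edgeR (background 0.00% of 12489 genes) or by DESeq2. With either tool, 0 of 9 had an unadjusted p under 0.05 (background 5.98% with edgeR and 7.22% with DESeq2). In 0 of 9 did the groups not overlap (background 12.3%). With voom, 7 of 9 had an unadjusted p under 0.05, which 28.1% of all genes reached, and 0 passed the thresholds. Of these 7, Onecut1 was lower in hADMSCs-Exo (-1.83) and the others were higher. By edgeR the median log2 fold change of the 9 factors was 0.31, beside -0.059 for all genes. With voom these were 0.72 and -0.021. For REG the counts were likewise 0 of 9 past the thresholds with both tools (edgeR background 0.00% of 12517 genes). They were 0 of 9 at the unadjusted level with both (background 11.3% with edgeR and 11.1% with DESeq2). The edgeR median was -0.090 beside -0.068. With voom, 4 of 9 had an unadjusted p under 0.05, which 42.0% of all genes reached, and Cebpa passed both thresholds (1.27, limma adjusted p = 0.0254). Of these 4, Onecut1 was lower in REG (-2.26) and the others were higher.

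Leaving out LFG 3 changed this picture for both comparisons. For hADMSCs-Exo against LFG, 6 of 9 factors then had an unadjusted p under 0.05, all higher in hADMSCs-Exo, against a background of 28.5% of 12955 genes (12.8% higher). Only Nr1i3 passed both thresholds (background 5.97%), with Prox1 and Cebpa at an adjusted p under 0.05 but below the limit on fold change (background 7.09%). The median of the 9 factors was then 0.86, beside 0.0041 for all genes. For REG against LFG without LFG 3, 4 of 9 had an unadjusted p under 0.05, all higher in REG (background 37.3%, and 18.2% in that direction), and 1, Cebpa, passed both thresholds (background 10.7%), and the median was 0.49 beside -0.0051. The LFG 1 and LFG 2 libraries that remain had the highest stellate cell marker sums of the 9 libraries. What part the cell make-up of these samples had in the result was not tested.

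**Figure D2:**
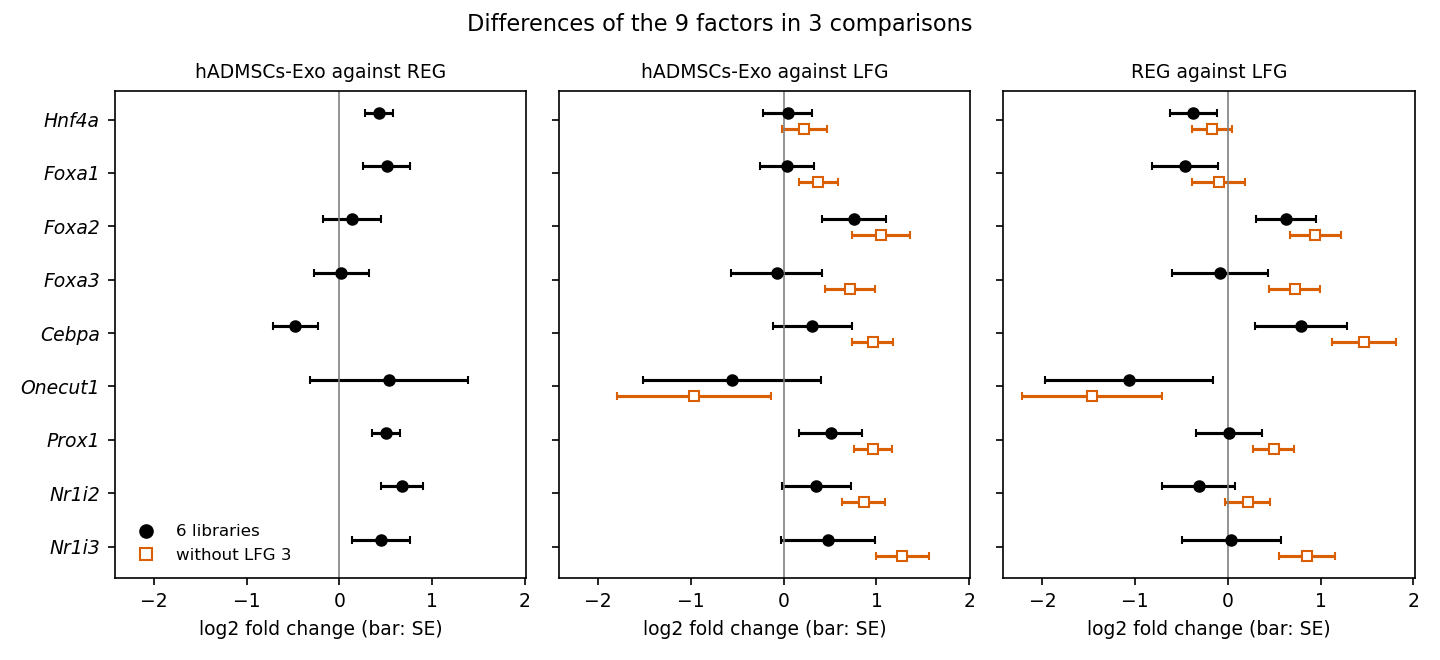
Log2 fold change of each factor with its standard error in the 3 comparisons, from 6 libraries (black) and, against LFG, without LFG 3 (orange). Without LFG 3 every factor but Onecut1 moves to the right, and Nr1i3 reaches 1.28 in hADMSCs-Exo and Cebpa 1.47 in REG.

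Hnf4a (ENSMUSG00000017950, chr2:163506808-163572910 on the plus strand of GRCm38), the receptor at the centre of the network, was the steadiest of the 9. Its log2 CPM was 9.05, 9.43 and 9.69 in LFG 1, 2 and 3, 8.95, 8.96 and 9.17 in REG, and 9.27, 9.58 and 9.50 in hADMSCs-Exo. Each REG library was below each hADMSCs-Exo library, as for 8.07% of the genes tested, while LFG overlapped both groups. The log2 fold change of hADMSCs-Exo against REG was 0.43 (SE 0.15, unadjusted p = 0.0215, edgeR adjusted p = 0.432), and the exact permutation test gave p = 0.1, the smallest that 3 libraries against 3 allow. Prox1 was the only other factor whose hADMSCs-Exo and REG libraries did not overlap. Hnf4a in LFG depended on scaling, since LFG 3 was the highest LFG library by log2 CPM after TMM scaling but the lowest by FPKM, at 138.35 against 150.91 and 154.88 in LFG 1 and LFG 2. In FPKM, all LFG libraries lay above all REG libraries (94.92 to 113.56), whereas the log2 CPM groups overlapped and the fitted log2 fold change of REG against LFG was -0.37 (SE 0.25), or -0.18 (SE 0.22) without LFG 3. Against LFG the value for hADMSCs-Exo was 0.04 (SE 0.26), and 0.22 (SE 0.25) without LFG 3, so that Hnf4a was not among the factors that separated when that library was left out. Within groups the SD of its log2 CPM was 0.22, at percentile 20.9 of the genes tested.

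None of the Foxa genes, whose proteins bind closed chromatin, passed the thresholds with all libraries. Foxa2 (ENSMUSG00000037025, chr2:148042877-148046969, minus strand) was at 3.91, 3.82 and 4.58 log2 CPM in LFG, 4.45, 4.44 and 5.23 in REG and 5.21, 5.10 and 4.15 in hADMSCs-Exo. LFG 1 and LFG 2 were the lowest libraries of the 9, and hADMSCs-Exo 3 was the next. Its log2 fold change against LFG was 0.75 (SE 0.35, edgeR adjusted p = 0.805) for hADMSCs-Exo and 0.63 (SE 0.32, edgeR adjusted p = 0.500) for REG, and without LFG 3 it was 1.04 (SE 0.31, adjusted p = 0.0847) and 0.94 (SE 0.27, adjusted p = 0.0529). Between hADMSCs-Exo and REG it was 0.14 (SE 0.32). Foxa2 thus had positive values against LFG in both groups with and without LFG 3, though none passed the adjusted threshold.

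Foxa1 (ENSMUSG00000035451, chr12:57540628-57546916, minus strand), a less abundant paralogue, was at 3.48, 3.72 and 4.41 log2 CPM in LFG, 3.10, 3.16 and 3.94 in REG and 4.11, 4.08 and 3.66 in hADMSCs-Exo. REG 1 and REG 2 were the lowest of the 9 and the groups overlapped. Its log2 fold change was 0.51 (SE 0.26, edgeR adjusted p = 0.547) for hADMSCs-Exo against REG, 0.04 (SE 0.29) for hADMSCs-Exo against LFG and -0.46 (SE 0.36) for REG against LFG. Without LFG 3 the values against LFG were 0.37 (SE 0.21) and -0.10 (SE 0.29). Foxa3 (ENSMUSG00000040891, chr7:19013284-19023538, minus strand), the Foxa gene with the highest level in these livers, ran from 5.19 (LFG 2) to 6.85 (LFG 3) log2 CPM. LFG 3 was 1.65 above the mean of LFG 1 and LFG 2, so that LFG held both ends of its range. Its log2 fold changes were 0.020 (SE 0.30) between hADMSCs-Exo and REG, -0.08 (SE 0.49) against LFG for hADMSCs-Exo and -0.09 (SE 0.52) for REG. Without LFG 3 the last 2 turned to 0.71 (SE 0.27, edgeR adjusted p = 0.138) and 0.72 (SE 0.28, adjusted p = 0.104).

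Cebpa (ENSMUSG00000034957, chr7:35119293-35121928, plus strand), which restrains proliferation and drives gluconeogenic and urea cycle genes, had the largest positive difference of the 9 between REG and LFG. Its log2 CPM was 6.62, 7.16 and 8.33 in LFG, 7.63, 8.56 and 8.63 in REG and 7.98, 7.76 and 7.83 in hADMSCs-Exo. LFG 1 and LFG 2 lay below all other libraries, and LFG 3 lay among the REG libraries. The log2 fold change of REG against LFG was 0.79 (SE 0.49, edgeR adjusted p = 0.572), and without LFG 3 Cebpa passed both thresholds at 1.47 (SE 0.34, adjusted p = 0.0324). For hADMSCs-Exo against LFG the values were 0.31 (SE 0.43, adjusted p = 0.932) and, without LFG 3, 0.96 (SE 0.22, edgeR adjusted p = 0.0489). Cebpa was also the only factor with a negative value between hADMSCs-Exo and REG, -0.47 (SE 0.24, unadjusted p = 0.0861, edgeR adjusted p = 0.550), where the groups overlapped because REG 1 lay below all 3 hADMSCs-Exo libraries. Without REG 1 the value was -0.72 (edgeR unadjusted p = 0.0018, adjusted p = 0.281). The hADMSCs-Exo libraries were close together, with an SD of 0.12 against 0.56 in REG and 0.87 in LFG. Of the Cebpa transcript, 51 exon bases (1.93%) overlap another annotated gene, Gm45091.

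Onecut1 (ENSMUSG00000043013, chr9:74861921-74891781, plus strand), a factor of hepatocytes and bile duct cells, was the scarcest and the least reproducible. It had 94, 237 and 20 counts in LFG, 23, 22 and 119 in REG and 164, 32 and 22 in hADMSCs-Exo. Each group thus held 1 or 2 libraries near 20 to 30 counts and at least 1 near or above 100. The highest CPM was 7.41 times the lowest within LFG, 5.23 times within REG and 7.01 times within hADMSCs-Exo, and 11.0 times over all 9 libraries. Its within-group SD of 1.38 log2 CPM lay at percentile 96.5 of the genes tested, and without LFG 3 the SD was 1.33. No group difference was resolved. The log2 fold changes were 0.53 (SE 0.85) for hADMSCs-Exo against REG, -0.56 (SE 0.96) for hADMSCs-Exo against LFG and -1.07 (SE 0.91) for REG against LFG, the last 2 being -0.96 (SE 0.83) and -1.47 (SE 0.75) without LFG 3. Of its exon bases, 2171 (52.8%) overlap the long non-coding RNA Gm20649 on the same strand, so its count depends on how the authors assigned shared reads.

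Prox1 (ENSMUSG00000010175, chr1:190118035-190170714, minus strand), a homeodomain factor of hepatocytes and lymphatic endothelium, gave the smallest p of the 9 between hADMSCs-Exo and REG. Its log2 CPM was 6.12, 5.63 and 6.95 in LFG, 6.13, 6.27 and 6.60 in REG and 6.99, 6.80 and 6.74 in hADMSCs-Exo. Every hADMSCs-Exo library exceeded every REG library, and only LFG 3 of the LFG libraries reached the hADMSCs-Exo range. The log2 fold change was 0.50 (SE 0.15, unadjusted p = 0.0107, edgeR adjusted p = 0.407), with p = 0.1 by the exact permutation test. Prox1 was the only factor that kept an unadjusted p under 0.05 with each of the 6 libraries left out in turn, but with all 9 libraries in one edgeR fit its unadjusted p was 0.136. Against LFG the value for hADMSCs-Exo was 0.51 (SE 0.34, edgeR adjusted p = 0.857), and 0.96 (SE 0.21, edgeR adjusted p = 0.0397) without LFG 3. REG and LFG differed by 0.02 (SE 0.36), and by 0.49 (SE 0.22, edgeR adjusted p = 0.144) without LFG 3. Markers of lymphatic endothelium summed to 3.34 to 7.89 FPKM in REG and 1.57 to 6.50 FPKM in hADMSCs-Exo, and the 4 of them that were tested had a median log2 fold change of -0.61, with 0 under an unadjusted p of 0.05 by edgeR. Ccl21a of that list was at 0 in all libraries, and the part of these cells in the Prox1 values was not tested.

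Nr1i2 (ENSMUSG00000022809, chr16:38248323-38294824, minus strand), the pregnane X receptor, had the largest difference between hADMSCs-Exo and REG of the 9. Its log2 CPM was 5.86, 6.23 and 7.21 in LFG, 6.28, 5.76 and 6.52 in REG and 6.51, 7.04 and 7.08 in hADMSCs-Exo. Only REG 3 and hADMSCs-Exo 1 touched, at 6.52 and 6.51, and in FPKM the groups did not overlap (19.59 to 34.11 against 36.72 to 52.01). The log2 fold change was 0.67 (SE 0.23, unadjusted p = 0.0187, edgeR adjusted p = 0.430), and the exact permutation test gave p = 0.2. It was 0.35 (SE 0.37) for hADMSCs-Exo against LFG, and 0.86 (SE 0.24, edgeR adjusted p = 0.0702) without LFG 3. For REG against LFG it was -0.31 (SE 0.40), and the sign turned without LFG 3, to 0.21 (SE 0.24).

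Nr1i3 (ENSMUSG00000005677, chr1:171213970-171220701, plus strand), the constitutive androstane receptor, had a lower mean FPKM than Nr1i2 (5.12 against 36.8) and followed it across libraries. Its log2 CPM was 3.46, 3.70 and 5.25 in LFG, 4.85, 3.81 and 4.32 in REG and 4.31, 4.87 and 5.21 in hADMSCs-Exo. LFG 1 and LFG 2 were the lowest of the 9 libraries and LFG 3 the highest. The log2 fold change of hADMSCs-Exo was 0.45 (SE 0.31, edgeR adjusted p = 0.649) against REG and 0.48 (SE 0.51, edgeR adjusted p = 0.908) against LFG. Without LFG 3 the latter was 1.28 (SE 0.29, edgeR adjusted p = 0.0441), the only value of the 9 past both thresholds, while REG against LFG was 0.03 (SE 0.53) with LFG 3 and 0.85 (SE 0.30, edgeR adjusted p = 0.0855) without it. Nr1i3 shares 3304 exon bases (74.9%) with Tomm40l, an import-channel gene on the opposite strand. The use of strand in counting is not given in the sources used here, so reads of the pair may not be separable. The FPKM of Nr1i3 beside that of Nr1i2 also depends on this. Tomm40l had 83 to 187 counts and a log2 fold change of 0.89 (SE 0.22, edgeR adjusted p = 0.380) for hADMSCs-Exo against REG and 0.04 (SE 0.43) against LFG.

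**Figure D3:**
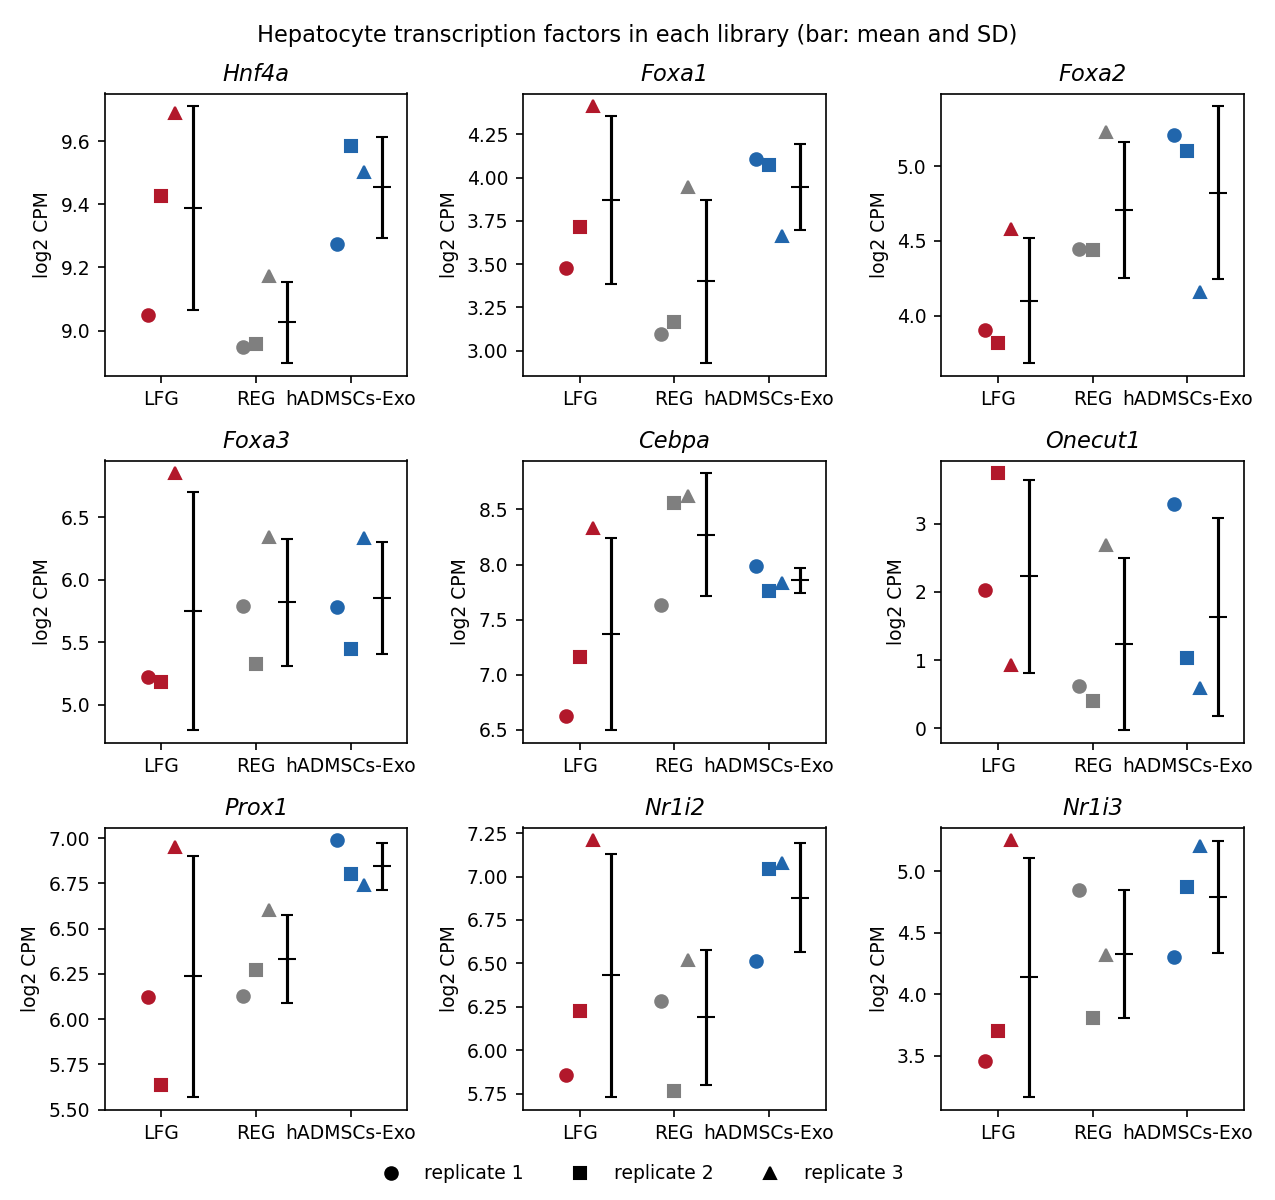
Log2 CPM of the 9 factors in each library by group, with the mean and SD beside the points. Each panel has its own axis range. The hADMSCs-Exo points of Prox1 (6.74 to 6.99) and Hnf4a (9.27 to 9.58) lie above all REG points, and LFG 3 (red triangle) is the highest point for Hnf4a, Foxa1, Foxa3, Nr1i2 and Nr1i3.

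After TMM scaling, LFG 3 had more of 8 of the 9 transcripts than the mean of the other LFG libraries, although Hnf4a was lowest there by FPKM. The differences in log2 CPM were 1.67 for Nr1i3, 1.65 for Foxa3, 1.44 for Cebpa, 1.17 for Nr1i2, 1.07 for Prox1, 0.82 for Foxa1, 0.72 for Foxa2 and 0.45 for Hnf4a. Onecut1 went the other way, by -1.95. On average over the 9 factors, the deviation from the mean of all libraries was -0.51 and -0.19 in LFG 1 and LFG 2 and 0.43 in LFG 3. In the same libraries stellate cell and myofibroblast markers deviated by 2.04, 1.65 and -1.89, and hepatocyte markers by -0.79, -0.17 and 0.33. By log2 CPM, the factors on average and the hepatocyte markers were thus high where the stellate cell markers were low within LFG. By summed FPKM the hepatocyte markers were at 56133, 71324 and 67579 in LFG 1, 2 and 3, so that LFG 2 was the highest. The TMM factor of LFG 3 (0.808) was the lowest of the 9 and that of LFG 1 (1.38) the highest, which scales LFG 3 up and LFG 1 down in log2 CPM.

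Between hADMSCs-Exo and REG the values of the marker lists went in both directions. All 11 stellate cell and myofibroblast markers had negative log2 fold changes (median -1.09), and 7 of them had an unadjusted p under 0.05 (10.0% of all genes), with Acta2 at -2.60 (SE 0.58, edgeR adjusted p = 0.358) and Col3a1 at -1.73 (SE 0.36, adjusted p = 0.358). Their FPKM summed to 35.5 to 66.6 in REG and 14.7 to 39.9 in hADMSCs-Exo. The 11 hepatocyte markers had a median of -0.16, against 0.45 for the factors. Cholangiocyte markers, of cells that also use Onecut1 and the Foxa genes, had a median of -0.42 and summed to 41.1 to 44.1 FPKM in REG and 36.2 to 75.3 FPKM in hADMSCs-Exo. Macrophage and lymphocyte markers had medians of 0.20 and 0.35. The part of these markers in the values of the factors was not tested.

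**Figure D4:**
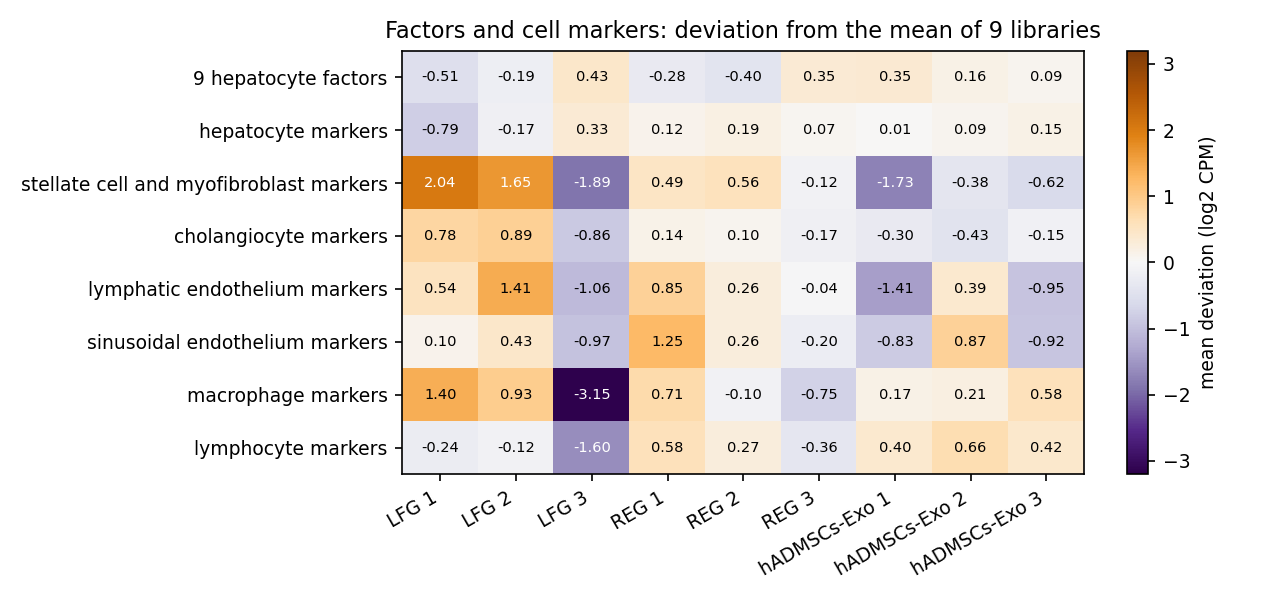
Mean deviation of log2 CPM from the 9-library mean for the 9 factors and 7 marker lists, by library. In LFG the factors run from -0.51 to 0.43 and the stellate cell markers from 2.04 to -1.89. In hADMSCs-Exo the factors lie between 0.09 and 0.35 and the stellate cell markers between -1.73 and -0.38.

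The factors tended to vary together from library to library. Of the 36 pairs, 31 had a positive Pearson's r of log2 CPM over the 9 libraries, with a median of 0.46 and a range from -0.53 (Onecut1 and Nr1i3) to 0.88 (Nr1i2 and Nr1i3). Hnf4a was most like Nr1i2 (0.86) and Foxa1 (0.81). Without LFG 3, 30 of 36 pairs were positive and the median was 0.42. These are descriptions over 9 points that share group, depth and scaling, given without p. The share of positive pairs among other genes was not computed, so this is not shown to be particular to these factors.

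**Figure D5:**
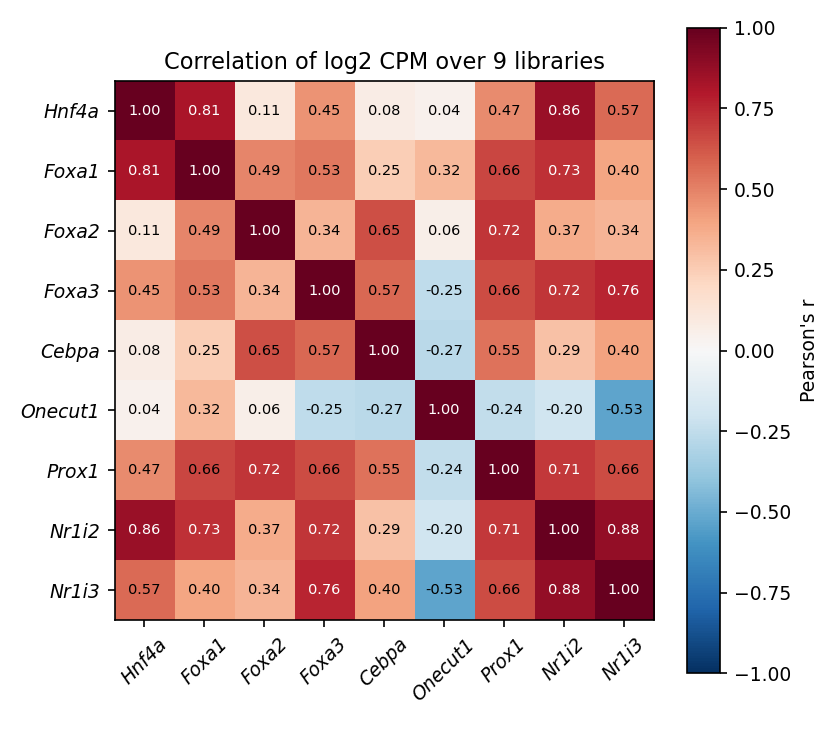
Pearson's r of log2 CPM over 9 libraries for each pair of factors. Red is positive and blue negative. Nr1i2 and Nr1i3 have the highest value, 0.88, and Onecut1 has a negative r with Nr1i3 (-0.53) and 4 other factors.

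Among 7678 genes with at least 10 CPM on average, the transcripts whose pattern over the 9 libraries was most like each factor were found by the same measure. For Hnf4a they were Tmcc1 (0.97), Stk38 (0.96) and Ccdc157 (0.93), and for Nr1i2 they were Chp1 (0.95), Fam214a (0.93) and Slc25a37 (0.93). Nr1i3 was closest to Fez2 (0.95), Ciart (0.94) and Nudt13 (0.93), and Prox1 to Cog8 (0.97), Smarcd2 (0.96) and Bcas2 (0.92). None of these 12 was a hepatocyte marker or another of the 9 factors, which says little, since the 11 markers and 9 factors are few beside 7678 genes. These r are the highest of 7678 over 9 points and were not tested. Cebpa was closest to Scap (0.97), Sdhb (0.96) and Camk2g (0.95), where Scap is the escort of the sterol-sensing SREBP factors and Sdhb a subunit of the respiratory chain. Foxa2 was closest to Chn2 (0.96), P2ry2 (0.95) and Pcdh1 (0.93), the only set whose 3 genes were also the closest without LFG 3, at 0.97, 0.99 and 0.96. Foxa1 was nearest to Sec24a (0.96), Foxa3 to Trim27 (0.96) and Onecut1 to Cdc42bpa (0.93).

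Other transcription factors of the hepatocyte network gave a background for these values. Of 38 such genes, 36 entered the test of hADMSCs-Exo against REG, where 6 were higher and 2 lower at an unadjusted p under 0.05 (10.0% of all genes in either direction, 5.34% higher), with a median log2 fold change of 0.10. The 3 with the smallest p and no overlap were Ahr, the dioxin receptor (0.93, SE 0.17, edgeR adjusted p = 0.358), Cebpb, the injury-induced relative of Cebpa (0.93, SE 0.23, adjusted p = 0.380), and Zbtb20, a repressor of Afp (0.52, SE 0.14, adjusted p = 0.394). Cebpb was thus higher in hADMSCs-Exo than in REG where the value of Cebpa was negative. Between REG and LFG, 2 of 37 were higher and 7 lower (11.3% of all genes), among them Ahr at -1.09 (SE 0.24, edgeR adjusted p = 0.277), Cebpb at -1.23 (SE 0.31, edgeR adjusted p = 0.309) and Foxo1, a factor of fasting metabolism, at -0.75 (SE 0.19, edgeR adjusted p = 0.309). These 2 comparisons share the REG libraries. Between hADMSCs-Exo and LFG, 0 of 37 reached an unadjusted p under 0.05 by edgeR and the median was 0.14. Without LFG 3 the medians against LFG were 0.23 for both groups, and 1 partner factor higher and 0 lower in hADMSCs-Exo, and 2 higher and 3 lower in REG, passed both thresholds (5.97% and 10.7% of all genes).

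Genes that work downstream of Hnf4a had mostly negative values between hADMSCs-Exo and REG, in 17 of 25. At an unadjusted p under 0.05, 0 of the 25 were higher and 2 lower, a share near the 10.0% of all genes, and the median was -0.19. The 2 were Otc, of the urea cycle, at -0.43 (SE 0.14, edgeR adjusted p = 0.409) and Apoh, a plasma protein gene, at -0.38 (SE 0.15, edgeR adjusted p = 0.479). Against LFG the list had medians of 0.25 for hADMSCs-Exo and 0.36 for REG, and of 0.54 and 0.83 without LFG 3, when 2 and 5 of its genes were higher and 0 lower past both thresholds (5.97% and 10.7% of all genes). Fgb, a fibrinogen chain, was at 1.17 (SE 0.34, edgeR adjusted p = 0.345) in REG against LFG, where 4 targets were higher and 2 lower (11.3% of all genes). For hADMSCs-Exo against LFG 1 was higher, F7, a clotting factor gene, at 0.88 (edgeR adjusted p = 0.805), and 1 was lower (5.98% of all genes).

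Of 15 targets of Cebpa, 1 was higher and 2 lower at an unadjusted p under 0.05 between hADMSCs-Exo and REG (10.0% of all genes), with a median of 0.11. Between REG and LFG, where Cebpa was at 0.79, 0 were higher and 4 lower at that level (11.3% of all genes), and the median was 0.14. Those 4 included Tat (-1.12, SE 0.39, edgeR adjusted p = 0.392), Pck1 (-1.26, SE 0.44, adjusted p = 0.392) and G6pc (-2.21, SE 0.84, adjusted p = 0.410), enzymes of amino acid breakdown and gluconeogenesis that fasting also controls. Without LFG 3 the median of the list was 0.55, and 2 targets were higher and 1 lower past both thresholds (10.7% of all genes). Between hADMSCs-Exo and LFG, G6pc at -2.10 (SE 0.76, edgeR adjusted p = 0.805) was the only one under an unadjusted p of 0.05.

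Drug-metabolism genes under Nr1i2 and Nr1i3 were examined in the same way. Of 32 tested between hADMSCs-Exo and REG, 1 was higher and 4 lower at an unadjusted p under 0.05 (10.0% of all genes), with a median of -0.063. Cyp2c55, a cytochrome P450 gene, was the only gene of the list past both thresholds, and the only one in the whole table. It fell by 2.87 on the log2 scale (SE 0.19, edgeR adjusted p = 0.00401), from 4.45, 4.56 and 4.43 log2 CPM in REG to 1.94, 1.37 and 1.59 in hADMSCs-Exo. Cyp2c29 (-0.89, SE 0.26, edgeR adjusted p = 0.407) and Gstt1, a glutathione transferase (-0.69, SE 0.16, edgeR adjusted p = 0.358), did not pass. Against LFG, Cyp2c55 in hADMSCs-Exo was at -2.97 (SE 0.53, edgeR adjusted p = 0.805), with 4.81, 5.10 and 3.12 log2 CPM in LFG. Cyp2c genes are close in sequence, so their counts may have been split between them. Against LFG the list had a median of -0.00094 for hADMSCs-Exo and 0.18 for REG, with Cyp3a13 at 1.07 (SE 0.32, edgeR adjusted p = 0.805) and 0.87 (SE 0.32). Without LFG 3 these medians were 0.22 and 0.35, and 0 genes higher and 2 lower in hADMSCs-Exo, and 3 higher and 2 lower in REG, passed both thresholds (5.97% and 10.7% of all genes). Of the 32 targets tested between hADMSCs-Exo and REG, 14 had a positive and 18 a negative log2 fold change, so that the list as a whole had no common direction there.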

How the data were processed

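Liver RNA of 9 libraries was analysed, and 3 hADMSCs samples are not analysed here. The authors deposited read counts per gene without normalization, and beside them FPKM, in which each count is divided by the length of the gene and the total of the library. Recomputing that scaling gave the same FPKM within a relative difference of 9.19e-07. The submitters' processing notes name cutadapt 1.15, HISAT2 2.0.5, HTSeq 0.9.1 and DESeq 1.30.0. Libraries were made with the NEBNext Ultra kit, and strand use in counting is not given in the sources used here. The columns headed MSC_E were matched by the letter E and the replicate number to the samples titled Exo. This match was inferred from the names, the series also holds samples titled MSC, and every hADMSCs-Exo value rests on it.

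Counts were normalized by TMM, filtered with filterByExpr and tested two-sided by the quasi-likelihood method of edgeR 4.0.16 (R 4.3.3), in fits of the 6 libraries compared. All 9 factors passed the filter in each comparison. P-values were adjusted by Benjamini-Hochberg over all genes tested. The SE is the log2 fold change divided by the square root of F. Log2 CPM used a prior count of 2. The test was tested on simulated data. Exact permutation tests compared log2 CPM means with scipy 1.17.1, pandas 2.3.3 and numpy 2.4.6 under Python 3.11.15, and plots used matplotlib 3.10.9.

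The factors and gene lists, written from general knowledge, were chosen with earlier results of these data known. Named from each list are up to 3 genes per comparison with the smallest p among those with an unadjusted p under 0.05 and no overlap of groups, and any past both thresholds. From cell marker lists up to 3 are named, and for each factor the 3 genes of highest r. Some genes that this rule names are not reported here.

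Same-numbered libraries of hADMSCs-Exo and LFG deviated together from their group means (r = 0.101, 0.308 and 0.180), the only ground for treating them as pairs. For hADMSCs-Exo and REG r was 0.159, 0.00938 and 0.0336, and for REG and LFG 0.415, -0.202 and 0.305.

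Alternatives were RLE size factors, DESeq2 1.42.0, limma 3.58.1 voom with quality weights, no filter, 1 joint fit of the 9 libraries, a minimum of 10 counts in each library, a replicate block, no limit on fold change, each library left out, and library totals without TMM. Where leaving out a library left a group with 2, the spread was pooled over both groups.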

Additional observations from a re-analysis of the deposited data

How the results depend on the processing

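Each group holds 3 libraries, Onecut1 has as few as 20 counts in a library, and no test of depth was made. LFG 3 decides both comparisons with LFG. Shares in parentheses are those of all genes tested in the same fit. Of 378 values of single factors under alternatives, 341 kept their direction and side of the thresholds, 34 changed sign and 3 passed the thresholds. The sign changes concern differences near 0 or of wide error, and the cause was not tested. For hADMSCs-Exo against REG, the number of factors with an unadjusted p under 0.05 was 6 with limma voom and quality weights (13.6%) and 0 with all 9 libraries in one fit (3.79%). Of these 6, Cebpa was lower in hADMSCs-Exo (-0.53). With libraries left out in turn the number ran from 1 to 4, with 1, Prox1, without REG 2 (4.92%), hADMSCs-Exo 2 (8.59%) or hADMSCs-Exo 3 (9.57%), and the median from 0.22 to 0.50. The 4 factors without REG 1 (10.6%) included Cebpa, which was lower in hADMSCs-Exo. With libraries left out, Foxa1 ran from 0.37 to 0.84, Foxa2 from -0.053 to 0.45, Foxa3 from -0.26 to 0.32, Onecut1 from -0.85 to 1.72, Nr1i3 from 0.22 to 0.77 and Cebpa from -0.72 to -0.31. For hADMSCs-Exo against LFG, that number was 7 with voom (28.1%), and 0 to 6 with libraries left out, the 6 without LFG 3 (28.5%) and 1 without hADMSCs-Exo 3 (2.91%). The number past both thresholds ran from 0 to 1 and the median from 0.00036 to 0.86, both highest without LFG 3. Hnf4a ran from -0.11 to 0.22, Foxa1 from -0.14 to 0.37, Foxa3 from -0.35 to 0.71, Onecut1 from -1.92 to 0.57, Cebpa from 0.00036 to 0.96, Nr1i2 from 0.10 to 0.86, Nr1i3 from 0.17 to 1.28 and Prox1 from 0.25 to 0.96. With voom the median was 0.72, with Foxa3 at 0.65, Nr1i3 at 1.18, Prox1 at 1.01 and Onecut1 at -1.83. For REG against LFG, voom gave 4 factors at the unadjusted level (42.0%), 1 past both thresholds (Cebpa, 1.27, adjusted p = 0.0254 with limma), a median of 0.42 and Foxa3 at 0.42. With libraries left out these ran from 0 to 4, from 0 to 1 and from -0.36 to 0.49, each highest without LFG 3 (37.3%). Foxa3 ran from -0.37 to 0.72, Onecut1 from -2.22 to 0.052, Prox1 from -0.24 to 0.49, Nr1i2 from -0.57 to 0.21 and Nr1i3 from -0.27 to 0.85. Cebpa ran from 0.48 to 1.47, Foxa2 from 0.35 to 0.94 and Foxa1 from -0.75 to -0.10.

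The replicate number as a block left 3 factors at the unadjusted level for hADMSCs-Exo against REG (9.52%) and 0 against LFG (5.72%). For REG against LFG, where numbers do not pair the libraries, the block gave 2 (8.61%). It put Foxa3 at 0.095 in the comparison of hADMSCs-Exo with LFG and at 0.078 in that of REG with LFG, where the median of the factors also turned to 0.078, and changed no other direction or call. Library totals without TMM, an alternative chosen after seeing the data, shifted the median of all genes by -0.12 in hADMSCs-Exo against LFG and by -0.20 in REG against LFG. Under it Hnf4a (-0.040) and Foxa1 (-0.010) in the former and Prox1 (-0.11) and Nr1i3 (-0.0029) in the latter changed sign, and 1 factor had an unadjusted p under 0.05 in the latter (11.4%). The adjusted p of Hnf4a, Prox1 and Nr1i2 for hADMSCs-Exo against REG ran from 0.233 to 1.00 over all alternatives.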

Other observations

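Of 16 genes that injured hepatocytes switch on as they lose identity, 11 were tested. Against LFG, 11 of 11 had a negative log2 fold change in hADMSCs-Exo (median -0.91) and 10 of 11 in REG (median -0.998), with 2 and 1 under an unadjusted p of 0.05 (5.98% and 11.3% of all genes), so that in REG the share was near that of all genes. Gpc3, an oncofetal proteoglycan gene, was at 2.16, 2.54 and 0.35 log2 CPM in LFG, between -0.05 and 0.73 in REG and between -0.48 and 0.32 in hADMSCs-Exo, with a log2 fold change of -2.11 (SE 0.65, edgeR adjusted p = 0.805) for hADMSCs-Exo against LFG. LFG 3 lay with the recovering livers. Without LFG 3 the medians were -1.39 and -1.37, and 5 and 7 genes passed both thresholds, all lower than in LFG (5.97% and 10.7% of all genes). Several genes of this list are also expressed by bile duct cells, whose markers had medians of -0.98 and -0.61 in the 2 comparisons. Between hADMSCs-Exo and REG the list was at -0.38, with Sox9, a progenitor and bile duct factor, at -0.86 (SE 0.28, edgeR adjusted p = 0.409).

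Genes of the cofactors that hold or assist PXR and CAR were described in the same way. Of 14, 3 were higher in hADMSCs-Exo than in REG at an unadjusted p under 0.05 and 0 lower (all genes 10.0%), with 12 positive values and a median of 0.27, while 5 were lower and 0 higher in REG than in LFG (all genes 11.3%), with 11 negative values and a median of -0.30. These 2 comparisons share the REG libraries. Hsp90aa1, the chaperone that keeps CAR in the cytoplasm, was at 8.77, 8.68 and 7.91 log2 CPM in LFG, 6.54, 7.03 and 6.75 in REG and 7.39, 7.21 and 7.18 in hADMSCs-Exo. All 3 groups were separate, but no overlap was a condition for naming a gene in a comparison. Between hADMSCs-Exo and LFG, 12.3% of all genes tested had groups that did not overlap. LFG 3 followed its group for Hsp90aa1. Its log2 fold change was -1.71 (SE 0.29, edgeR adjusted p = 0.243) for REG against LFG, -1.25 (SE 0.29, edgeR adjusted p = 0.805) for hADMSCs-Exo against LFG and 0.48 (SE 0.15, edgeR adjusted p = 0.407) for hADMSCs-Exo against REG.

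Pdk4, a brake on glucose oxidation that was placed among the Cebpa targets, had 4.52 and 5.07 log2 CPM in LFG 1 and LFG 2 but 0.25 in LFG 3, below the 8 other libraries. Cyp2e1, the enzyme that activates CCl4, was at 9.53 and 11.19 log2 CPM in LFG 1 and LFG 2, 13.54 in LFG 3, 12.13 to 12.35 in REG and 12.64 to 13.12 in hADMSCs-Exo, and its log2 fold change for hADMSCs-Exo against REG was 0.67 (SE 0.19, edgeR adjusted p = 0.407).

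The remaining marker lists had these medians for hADMSCs-Exo against REG, hADMSCs-Exo against LFG and REG against LFG. They were -0.77, 0.018 and 0.76 for sinusoidal endothelium, 0.20, -0.22 and -0.38 for macrophages and 0.35, 1.03 and 0.72 for lymphocytes. The last 2 of each were, without LFG 3, -0.34 and 0.61 for sinusoidal endothelium, -0.73 and -0.90 for macrophages and 0.63 and 0.44 for lymphocytes.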
